A study of Mus musculus with 28 samples.

Results

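Voltage-gated calcium and sodium channel genes were examined in mouse hippocampus on 28 Affymetrix Mouse Gene 1.0 ST arrays. The members were the genes whose symbol starts with Cacna, Cacnb, Cacng or Scn plus a digit, taken from table entries that name 1 gene, with the entry of highest mean kept for each gene. This gave 35 of 19938 named genes. They comprise 10 calcium α1 genes, 4 α2δ genes, 3 calcium β genes, 7 γ or TARP genes, 8 sodium α genes and 3 sodium β genes.

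All animals were female C57/DBA F1 hybrids aged 3 months, either heterozygous for the CREB-binding protein gene (cbp+/-) or their wild-type littermates. CREB-binding protein is a coactivator with histone acetyltransferase activity, and trichostatin A (TSA) inhibits histone deacetylases. Each genotype had 3 arrays of novelty with TSA, 3 of novelty with vehicle, 3 of TSA in the standard cage and 5 standard-cage controls, of which replicates 1 and 2 were naive and replicates 3 to 5 had received vehicle. TSA was injected at 2.4 mg/kg, tissue was taken 75 min later, and novelty was 1 h alone in a box with tubing and toys. One array represents a pool of 3 to 4 mice, so the spread described here is between pools. The heterozygous loss is present in every cell type, and whole hippocampus mixes all of its cells, so fewer cells of a type and less RNA per cell cannot be told apart in any result that follows.

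A voltage-gated calcium channel is built around an α1 subunit that forms the pore and senses voltage, with α2δ and β subunits that govern its delivery to the membrane and its gating. Sodium channels have a pore-forming α subunit, which carries the rising phase of the action potential, and β subunits that set its kinetics and placement. Several γ genes encode TARPs, which bind AMPA-type glutamate receptors rather than calcium channels. In hippocampal neurons these families set excitability, transmitter release and calcium entry into dendrites.

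Values are log2 expression as deposited. Array medians lay between 5.46 and 5.63, and 10 of the 35 genes had a mean below 6.10, the median of all named genes. These were Cacna1f, Cacna1s, Cacna2d4, Cacnb2, Cacng1, Scn4b, Scn7a, Scn9a, Scn10a and Scn11a. Without detection calls, low values cannot be separated from background, and the number of arrays limits precision. Crebbp, the targeted gene, averaged 9.45 ± 0.27 in arrays labelled cbp+/- and 9.25 ± 0.31 in arrays labelled wild type (SD, n = 14 each), so it was not lower in the heterozygotes. Its difference was 0.21 ± 0.12 without array set as a block (SE, limma adjusted p = 1) and 0.21 ± 0.05 with it (limma adjusted p = 0.066). The position of its probes relative to the altered allele is not known here, and this level does not check the genotype labels, and every direction below rests on those labels. Hippocampal markers were present, with Camk2a at the 99.9 percentile and Prox1 at the 84.7 percentile of named genes.

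The arrays fell into 4 sets. Set 1 coincides with the naive label, and no label names the other sets. Vehicle controls 3, 4 and 5 varied together with replicates 1, 2 and 3 of the other groups, as sets 2, 3 and 4. Only set 1 had no injection, so array set and lack of injection cannot be told apart where set 1 differs. Each set holds both genotypes in equal number. Sets 2 to 4 hold every condition except naive, so genotype, TSA and novelty could each be compared within a set. The sets were recognised from the values, and calls are given without and with array set as a block in the fit. Fitted differences of single genes, given with a standard error or an adjusted p, are with the block unless stated otherwise.

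Array set accounted for more of the spread of the channel genes than the experimental group did. Because the sets were recognised from the values, a high share between sets is partly built in, and the shares only describe the arrays. The median share of variance between sets was 65.1% over the 35 genes and 43.8% over all named genes, and the share between groups was 10.8% and 18.3%. Of the 35 genes, 23 had over 50% of their variance between sets. The gene most dependent on set was Cacna1b, the N-type presynaptic channel, with 92.3% of its variance between sets and set means of 8.52, 8.88, 8.97 and 8.27 in sets 1 to 4. Cacna1e (R-type) had 91.8% and Cacna1a (P/Q-type), the main channel of fast transmitter release, 91.7%.

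Set 4 was the lowest for 20 of the 35 genes, and set 3 or set 2 was the highest for 17 and 13. Set 1, the naive arrays, was the highest for 5 genes, Cacna2d1, Cacnb4, Scn1a, Scn3a and Scn7a. Cacna2d1, the gabapentin-binding α2δ-1 subunit, had set means of 10.46, 9.93, 9.50 and 9.79. Scn3b, a sodium β subunit, was highest in set 2 at 10.20, against 9.43 to 9.56 in the other 3 sets. The residual SD of the median channel gene was 0.22 without the block and 0.13 with it.

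**Figure D1:**
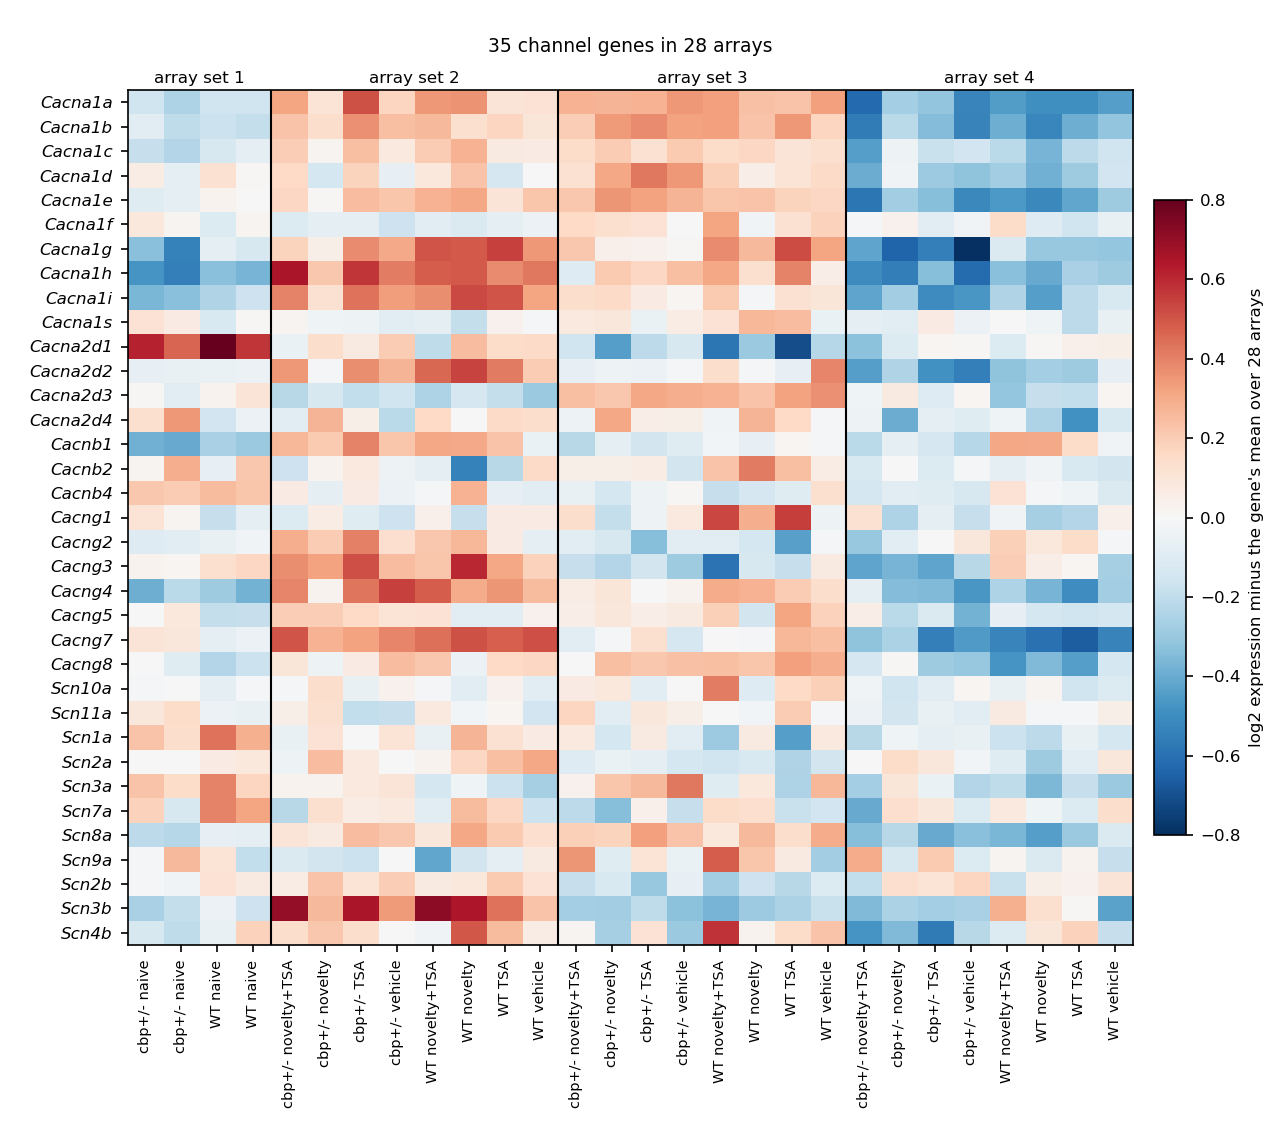
Log2 expression of the 35 genes (down the page, by family) in 28 arrays (across, by array set, with cbp+/- left of wild type in each set), each gene centred on its mean over all arrays. Colours saturate at 0.8 in either direction. Most calcium α1 genes, Cacng7 and Scn8a are blue in array set 4, and Cacna2d1 is red in the naive arrays of set 1.

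The first comparison asked how the channel genes differ between cbp+/- and wild-type hippocampus over all conditions. Cacna1g, the α1 subunit of the T-type calcium channel Cav3.1, which opens near the resting potential and supports burst firing, was lower in cbp+/- arrays by 0.30 on the log2 scale, a ratio of 0.810 (95% interval 0.761 to 0.861 with the block). It was the only channel gene past the threshold of 0.05 in limma's fit with the block (adjusted p = 0.000522), where 132 of 19938 genes or 0.662% passed. Without the block 0 of 35 channel genes passed, as did 0 of all genes (0%), and Cacna1g had a difference of -0.30 ± 0.14 (SE, adjusted p = 1). The call therefore rests on the array sets.

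The values of Cacna1g in every array were as follows. Naive arrays measured 6.61 and 6.40 in cbp+/- and 6.87 and 6.82 in wild type. In array set 2, novelty with TSA gave 7.13 in cbp+/- against 7.45 in wild type, novelty 6.99 against 7.44, TSA 7.33 against 7.49 and vehicle control 7.25 against 7.29. In array set 3 these pairs were 7.16 in cbp+/- against 7.33 in wild type, 6.99 against 7.21, 6.98 against 7.47 and 6.96 against 7.26. The cbp+/- array was the lower of every pair in both sets. The naive arrays of the genotypes, 2 against 2, did not overlap. That also held, in either direction, for most of the other channel genes, none of which passed for genotype, Cacna1c, Cacna1e and Scn8a among them. The share of all genes that separate in the naive arrays alone was not counted.

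In array set 4 all arrays were lower, with novelty with TSA at 6.52 in cbp+/- against 6.83 in wild type, novelty at 6.31 against 6.65, TSA at 6.40 against 6.64 and vehicle control at 6.09 against 6.64. Cacna1g was thus lower in cbp+/- in 12 of 12 matched pairs, by 0.05 to 0.55 with a median difference of -0.31. Over all arrays the genotypes overlapped, with 6.09 to 7.33 in cbp+/- and 6.64 to 7.49 in wild type. Of all named genes, 24 (0.12%) were lower in all 12 pairs with naive arrays that did not overlap, and 5 (0.0251%) were higher.

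The Cacna1g difference within array sets 1 to 4 was -0.34, -0.25, -0.30 and -0.36. By condition it was -0.27 ± 0.09 after novelty with TSA, -0.34 ± 0.09 after novelty, -0.30 ± 0.09 under TSA and -0.32 ± 0.07 in controls (SE, with the block). Neither Cacna1g, with limma adjusted p between 0.273 and 0.664, nor another channel gene passed in any of these 4 comparisons alone, and of all genes 0.00502% passed after novelty and 0% in the other 3. Its genotype difference did not pass a test of interaction with TSA (0.04 ± 0.09, limma adjusted p = 0.899) or with novelty (0.01 ± 0.09, limma adjusted p = 0.996).

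**Figure D2:**
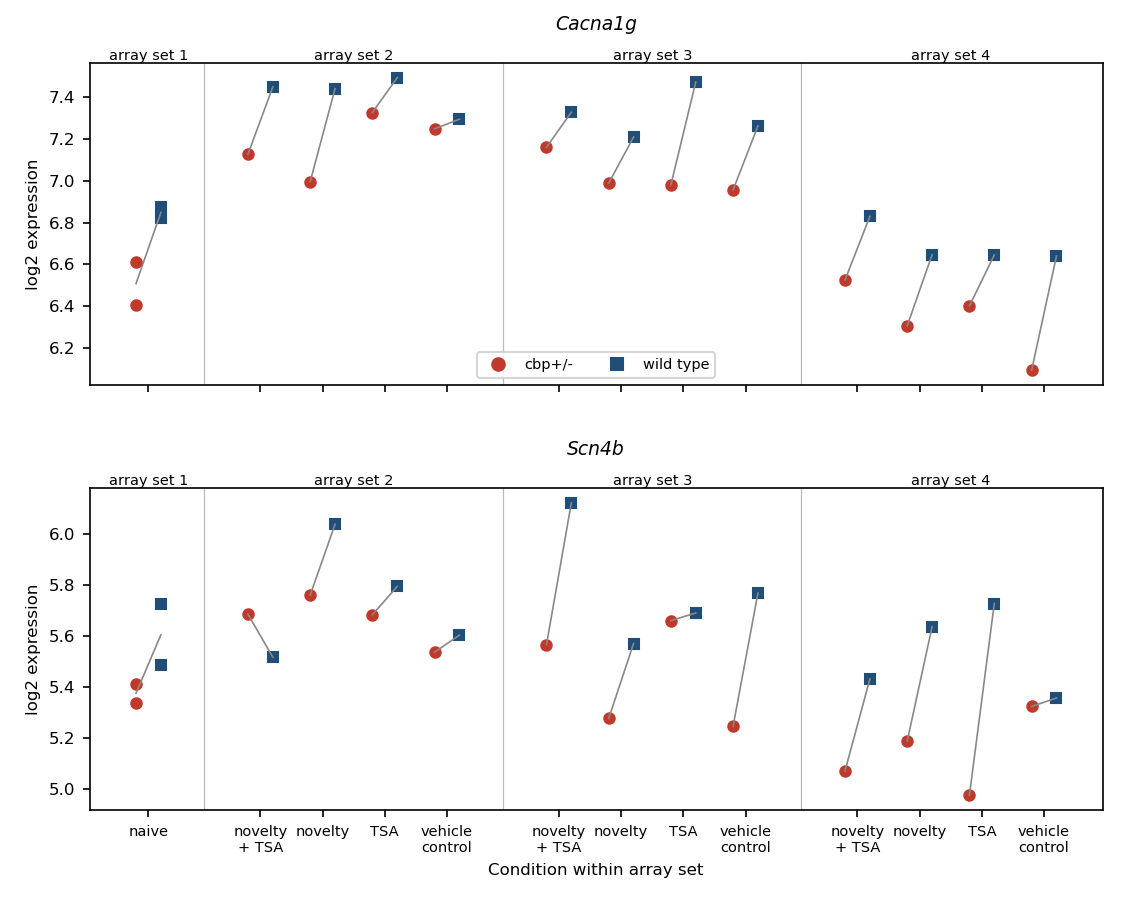
Log2 expression of Cacna1g and Scn4b in each of 28 arrays, with cbp+/- (circles) left of wild type (squares) in each condition and array set, and lines joining arrays of a matched pair or, for naive arrays, group means. Cacna1g is lower in cbp+/- in 12 of 12 matched pairs and Scn4b in 11 of 12.

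The other calcium α1 genes differed little by genotype. Of the 10, 7 were positive and 3 negative, and after Cacna1g the most negative were its T-type relatives Cacna1h (-0.10 ± 0.05, adjusted p = 0.455) and Cacna1i (-0.09 ± 0.04, adjusted p = 0.398), both with the block. Cacna1h was lower in cbp+/- in 8 of 12 pairs, as was Cacna1i. Neither passed the test.

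The high-voltage α1 genes of hippocampal neurons had narrow intervals around 0 with the block. Cacna1c, the main L-type channel coupling activity to gene transcription, differed by 0.00 ± 0.04 (SE), with a 95% interval of -0.08 to 0.09. The interval was -0.06 to 0.11 for Cacna1a, -0.04 to 0.11 for Cacna1b and -0.08 to 0.08 for Cacna1e. The narrowness rests on the block. Without it, in a fit over entries, standard errors were 0.14 for Cacna1a, 0.13 for Cacna1b and Cacna1e, and 0.08 for Cacna1c. Cacna1d, the other L-type channel of neurons, differed by 0.05 ± 0.05. Cacna1f and Cacna1s, the L-type channels of retina and skeletal muscle, had low signals and differed by 0.0014 ± 0.04 and 0.0033 ± 0.04.

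Among calcium channel auxiliaries, all 3 β genes were negative. Cacnb1 averaged 8.44 in cbp+/- and 8.56 in wild type, a difference of -0.14 ± 0.05 with 10 of 12 pairs lower, and did not pass (adjusted p = 0.227 with the block). Cacnb4 differed by -0.04 ± 0.04 and Cacnb2 by -0.0019 ± 0.07. Of the α2δ genes, Cacna2d2 was the lowest at -0.14 ± 0.05 (adjusted p = 0.263), lower in 9 of 12 pairs, and Cacna2d1, Cacna2d3 and Cacna2d4 differed by 0.02 ± 0.05, 0.04 ± 0.04 and 0.03 ± 0.07. A second Cacna2d1 entry of the array gave 0.10 ± 0.05 in a fit over entries (adjusted p = 0.416).

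The γ and TARP genes lay between -0.11 (Cacng3) and 0.05 (Cacng5), with 3 positive and 4 negative. The type I TARPs Cacng2 (stargazin), which brings AMPA receptors to synapses, and Cacng8, the abundant hippocampal one, differed by -0.02 ± 0.06 and 0.03 ± 0.05 with the block.

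Scn4b encodes the β4 sodium channel subunit, which is tied to resurgent sodium current. It averaged 5.41 ± 0.25 in cbp+/- and 5.68 ± 0.22 in wild type (SD, n = 14 each), with ranges of 4.97 to 5.76 in cbp+/- and 5.36 to 6.12 in wild type that overlap. Its difference was -0.28 ± 0.07 with the block and it was lower in 11 of 12 matched pairs, by up to 0.75. The exception was novelty with TSA in array set 2, at 5.69 in cbp+/- and 5.52 in wild type, where the wild-type array had raised choroid plexus markers. It missed the threshold (adjusted p = 0.0732) and passed without array set 2 (-0.37, adjusted p = 0.0465), without the 3 arrays with raised choroid plexus markers (-0.33, adjusted p = 0.0373), without wild-type novelty replicate 2 (-0.31, adjusted p = 0.0362) and without wild-type novelty with TSA replicate 1 (-0.32, adjusted p = 0.0178). It did not pass without set 1 (-0.27, adjusted p = 0.127), set 3 (-0.26, adjusted p = 0.14) or set 4 (-0.20, adjusted p = 0.523), nor in the other 26 fits that left out 1 array (highest adjusted p = 0.162). Those 3 arrays, all in set 2, were cbp+/- vehicle control replicate 3, cbp+/- TSA replicate 1 and wild-type novelty with TSA replicate 1.

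Scn3a, the embryonic-type α subunit Nav1.3, was the most positive member. It averaged 7.69 ± 0.18 in cbp+/- and 7.54 ± 0.23 in wild type (SD, n = 14 each), a difference of 0.17 ± 0.05 with the block that did not pass (adjusted p = 0.167). It was lower in cbp+/- in 1 of 12 matched pairs, but in the naive arrays the difference was -0.09. The groups overlapped.

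The remaining sodium genes did not pass. Scn1a, the main α subunit of fast-spiking interneurons, differed by 0.02 ± 0.05 (95% interval -0.08 to 0.13), and Scn8a, the α subunit of the axon initial segment in adult neurons, by -0.01 ± 0.04 (-0.09 to 0.07), both with the block. Scn3b differed by -0.12 ± 0.06 (adjusted p = 0.461) and Scn2b by 0.02 ± 0.04. Scn7a, an atypical sodium channel with a low signal here, differed by -0.13 ± 0.06 (adjusted p = 0.398). The sensory neuron channels Scn9a, Scn10a and Scn11a, also low here, differed by 0.05 ± 0.07, -0.02 ± 0.04 and -0.02 ± 0.04.

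**Figure D3:**
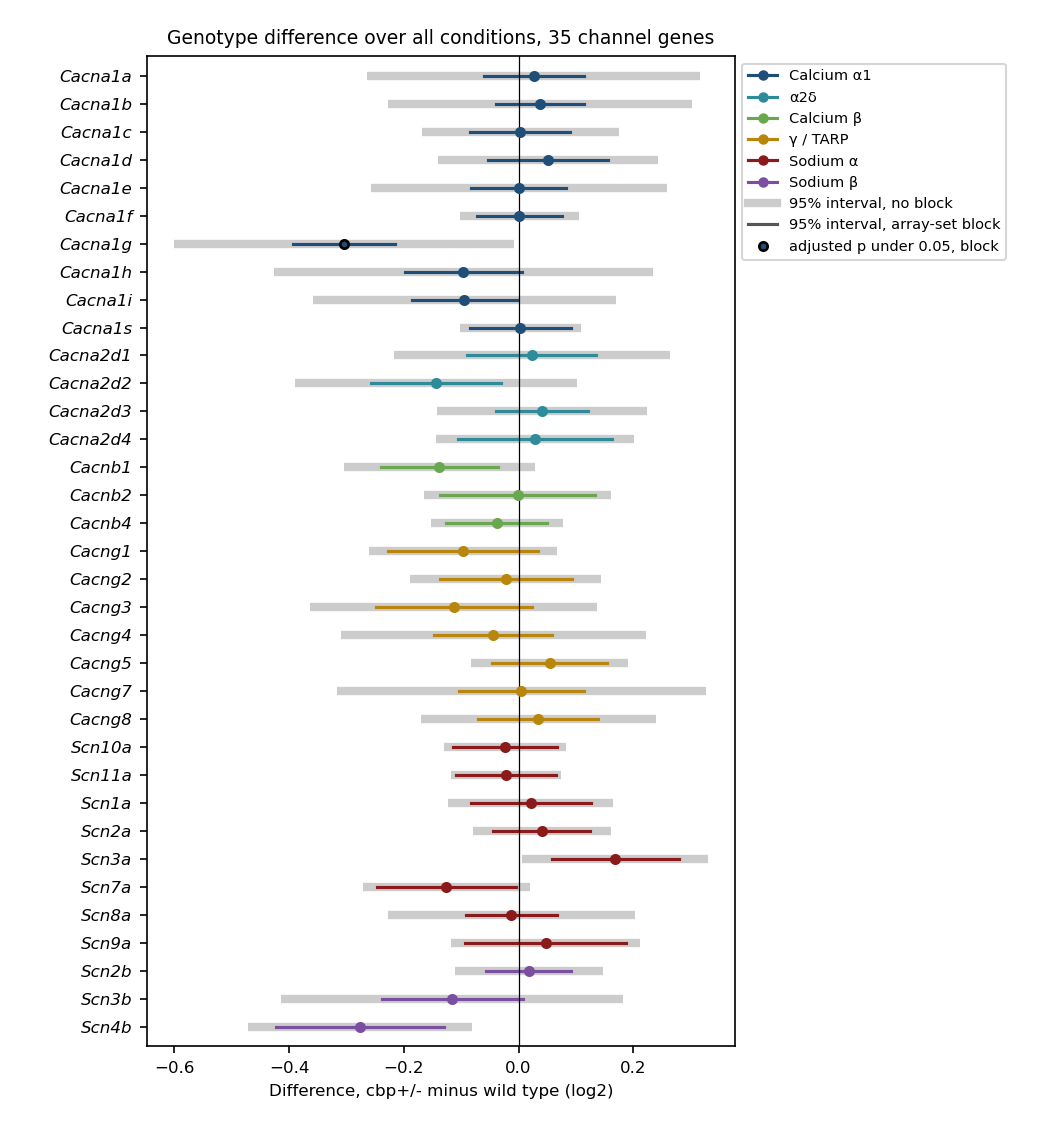
Genotype difference over all conditions (log2, cbp+/- minus wild type) for the 35 genes, grouped by family. Wide grey bars are 95% intervals without a block, thin coloured bars are 95% intervals with array set as a block, and a black outline marks adjusted p under 0.05 with the block. Cacna1g at -0.30 is the only outlined gene.

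Over all 35 genes the genotype difference had a median of 0.00 (all genes -0.01) and a median size of 0.04 (all genes 0.04), with 18 positive and 17 negative. With the block, 7 of 35 (20%) had an unadjusted p under 0.05, against 11.9% of all genes. Of the 7, 1 was higher in cbp+/- (Scn3a) and 6 were lower (Cacna1g, Scn4b, Cacnb1, Cacna2d2, Scn7a and Cacna1i). Without the block there were 3 of 35, against 2.6% of all genes.

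Scn2a, the α subunit Nav1.2 of excitatory axons, has 14 entries on the array that name it alone, which share the gene and are not independent. With the block all 14 were positive for genotype (0.01 to 0.15, median 0.06), and all 14 were negative for TSA (-0.19 to -0.03) and for novelty (-0.10 to -0.01). None passed in a fit over 23410 entries, with lowest adjusted p values of 0.335 for genotype, 0.13 for TSA and 0.596 for novelty. The entry used for the gene gave 0.04 ± 0.04 for genotype in the fit over genes. Scn2a lies beside Scn3a on chromosome 2, and Scn1a, Scn9a and Scn7a also lie side by side there. Entries naming several sodium genes at once were left out of the members.

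**Figure D4:**
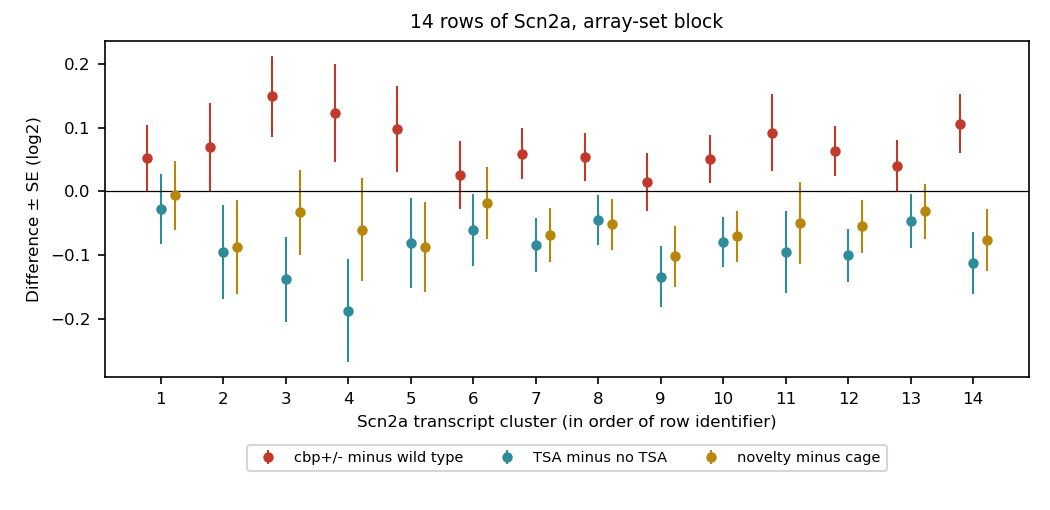
Differences with their standard errors (log2, array-set block) at 14 Scn2a entries of the array, for genotype, TSA and novelty. All 14 genotype differences are above 0 and all 14 TSA and all 14 novelty differences are below 0, and none passed the test.

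The second comparison asked what TSA changed at 75 min. No channel gene passed over all backgrounds without the block (132 genes, 0.662%, passed) or with it (899 genes, 4.51%). Unadjusted p was under 0.05 for 3 of 35 with the block (8.57%), against 15.9% of all genes, and the median channel gene differed by 0.00.

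The most negative of the channel genes under TSA was Cacna2d1. Its means were 9.66 ± 0.14 after novelty with TSA against 9.71 ± 0.29 after novelty in cbp+/-, and 9.55 ± 0.25 against 9.83 ± 0.27 in wild type (SD, n = 3 each). In the standard cage they were 9.80 ± 0.15 under TSA against 10.08 ± 0.31 in controls in cbp+/-, and 9.67 ± 0.47 against 10.11 ± 0.42 in wild type (SD, n = 3 and 5). The difference was -0.26 ± 0.12 without the block (limma adjusted p = 0.506), where the naive arrays lift the controls, and -0.14 ± 0.06 with it (limma adjusted p = 0.207). It was -0.19, -0.14 and -0.08 within array sets 2, 3 and 4, and the gene's second entry gave -0.07 ± 0.05 with the block.

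Cacna1g differed by 0.14 ± 0.05 under TSA with the block (adjusted p = 0.0889) and by 0.10, 0.13 and 0.18 within array sets 2, 3 and 4, and in that fit passed when cbp+/- vehicle control replicate 3 was left out (0.16 ± 0.04, adjusted p = 0.0366). Scn2b, a sodium β subunit that associates with the α subunit, differed by -0.11 ± 0.04 (adjusted p = 0.0923), with -0.04, -0.13 and -0.17 within those sets. Scn9a, the α subunit Nav1.7 of sensory neurons, differed by 0.15 ± 0.07 (adjusted p = 0.319). A dimmer Scn9a entry, with a mean of 3.77, gave 0.25 ± 0.06 and passed with the block (adjusted p = 0.0195) but not without it (adjusted p = 0.257).

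All 4 α2δ genes were negative under TSA with the block, from -0.14 to -0.01, and 7 of 10 calcium α1 genes were positive, up to 0.14 for Cacna1g. Scn1a differed by -0.15 ± 0.07 without the block (adjusted p = 0.532) and by -0.10 ± 0.05 with it (adjusted p = 0.417), and Scn3a by -0.08 ± 0.06 with it (adjusted p = 0.535). Cacna1h differed by 0.19 ± 0.16 without the block and 0.09 ± 0.05 with it, and Cacng4, a TARP gene, by 0.14 ± 0.13 and 0.07 ± 0.05. In the 4 comparisons of TSA within a genotype and housing, 0 channel genes passed with the block, against 0.0702% of all genes in wild type after novelty, 0.0201% in cbp+/- after novelty, 0.0401% in wild type in the cage and 0.0251% in cbp+/- in the cage, and 0 passed without it (0% of all genes in each).

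The third comparison asked what 1 h of novelty changed. No channel gene passed without the block (38 genes, 0.191%, passed) or with it (95 genes, 0.476%), and 0 of 35 had an unadjusted p under 0.05 with the block, against 8.21% of all genes. Cacna2d1 was again the most negative, at -0.11 ± 0.06 with the block (limma adjusted p = 0.669), and the most positive was Scn3b at 0.10 ± 0.06 (limma adjusted p = 0.757). Cacnb1 differed by 0.06 ± 0.05, Cacng4 by 0.04 ± 0.05, Scn1a by -0.02 ± 0.05 and Scn3a by -0.02 ± 0.06, all with the block. Within a genotype and injection group, 0 channel genes passed for novelty with the block, against 0.11% of all genes in wild type, 0.0853% in cbp+/-, 0.1% in wild type under TSA and 0.0451% in cbp+/- under TSA (0.0351%, 0.0251%, 0.01% and 0.01% without the block). No channel gene passed either interaction of genotype with TSA or novelty, and 0 had an unadjusted p under 0.05 with the block, against 8.09% and 4.86% of all genes.

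**Figure D5:**
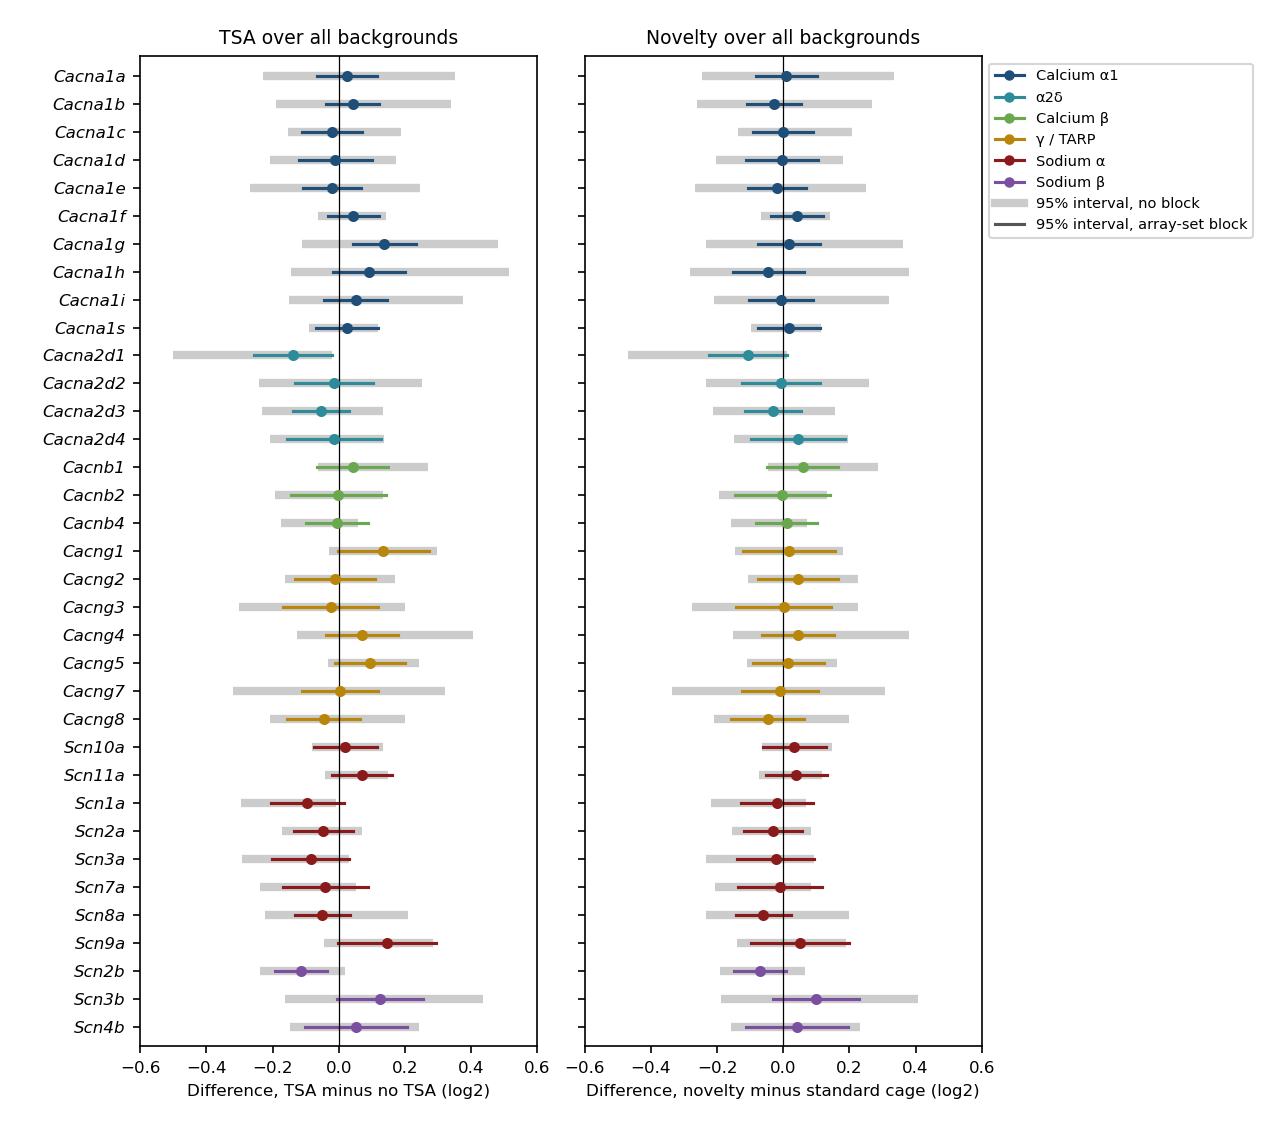
TSA difference (left, TSA minus no TSA) and novelty difference (right, novelty minus standard cage) over all backgrounds on the log2 scale, for the 35 genes. Wide grey bars are 95% intervals without a block and thin coloured bars 95% intervals with array set as a block. Cacna2d1 is the most negative gene in both panels, and no gene passed.

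Genes whose products bind or regulate these channels were read from lists. For genotype, 0.662% of all genes passed with the block and 0% without it. Of 16 measured sodium channel partners, 1 passed for genotype with the block, Fgf11, a fibroblast growth factor homologue of the family that binds sodium channel tails (-0.35 ± 0.05, adjusted p = 0.000607). Of 20 calcium channel partners, 1 passed, Stac2, an adaptor that slows L-type inactivation (-0.24 ± 0.04, adjusted p = 0.00267). Of 3 RGK GTPases, which inhibit calcium channels through the β subunit, Rem2 passed (-0.34 ± 0.06, adjusted p = 0.00567). All 3 were lower in cbp+/-, as were 100 of the 132 genes that passed for genotype with the block. None of the 3 passed without the block, where adjusted p was 1 for Fgf11 and Stac2 and 0.158 for Rem2.

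Rem2 averaged 6.18 ± 0.23 in cbp+/- and 6.86 ± 0.28 in wild type after novelty with TSA, 6.43 ± 0.11 and 6.73 ± 0.27 after novelty, and 6.32 ± 0.18 and 6.58 ± 0.16 under TSA (SD, n = 3 each). Its controls were at 6.38 ± 0.10 in cbp+/- and 6.50 ± 0.10 in wild type (SD, n = 5 each). After novelty with TSA the arrays ran from 6.01 to 6.44 in cbp+/- and from 6.67 to 7.18 in wild type. After novelty they ran from 6.34 to 6.56 in cbp+/- and from 6.55 to 7.04 in wild type. Under TSA and in the controls the genotypes also overlapped. How many of all genes separate in 3 against 3 arrays was not counted, and Rem2 was named because it passed for genotype. Under TSA, Fgf11 passed with the block (0.21 ± 0.05, adjusted p = 0.0226), 1 of 16 sodium channel partners where 4.51% of all genes passed. Gem, an RGK gene induced by activity, was the 1 partner that passed without a block, higher after novelty by 0.39 ± 0.07 (adjusted p = 0.0063), and by 0.34 ± 0.06 with it (adjusted p = 0.00383). For novelty, 0.191% of all genes passed without the block and 0.476% with it.

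Of 14 AMPA receptor genes and other auxiliaries, 12 were negative for genotype with a median of -0.09, and 0 passed with the block, against 0.662% of all genes. Cnih3, a cornichon auxiliary of AMPA receptors, passed under TSA with the block (0.21 ± 0.05, adjusted p = 0.0111), 1 of 14 where 4.51% of all genes passed. The sodium leak channel complex (4 measured) and the calcium release and store channels (10 measured) had 0 genes past the threshold for genotype, TSA or novelty. In these comparisons 0.662%, 4.51% and 0.476% of all genes passed with the block.

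Markers of other cells and regions were measured beside the Cacna1g difference, and their part in it was not tested. Of 10 excitatory hippocampal neuron markers, 8 were negative with a median of -0.01, and Wfs1, a CA1 marker, was lower in cbp+/- (-0.41 ± 0.05, adjusted p = 0.000343 with the block). The summed level of that list ran from 12.72 to 13.47 in cbp+/- and from 12.79 to 13.40 in wild type. Of 9 markers of thalamus, cortex and striatum, 5 were negative with a median of -0.03, Ppp1r1b passed (-0.27 ± 0.05, adjusted p = 0.0127), and the summed level ran from 11.24 to 11.85 in cbp+/- and from 11.32 to 11.80 in wild type. All 6 astrocyte markers were negative with a median of -0.11, and Gfap passed (-0.28 ± 0.06, adjusted p = 0.0127). Of 11 markers of meninges and fibroblasts, 7 were positive and 4 negative with a median of 0.04, and Dcn passed as lower in cbp+/- (-0.31 ± 0.04, adjusted p = 0.000522). Of 8 interneuron markers, 6 were negative with a median of -0.06. Of 7 oligodendrocyte markers, 5 were negative with a median of -0.09. All 6 microglia markers were positive with a median of 0.03. Of 5 markers of endothelium and blood, 3 were negative with a median of -0.03. None of these passed with the block, where 0.662% of all genes passed. Choroid plexus markers summed to 8.75 to 12.81 in cbp+/- and 8.73 to 12.54 in wild type. Without the 3 arrays with raised choroid plexus markers, Cacna1g differed by -0.34 (adjusted p = 0.00048 with the block).

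Promoter windows of RefSeq genes in assembly GRCm38.p6, from 250 bases before to 50 after a start, were read for 27 of the 35 genes, of which Cacna1g is not one. The full CREB-binding element TGACGTCA, which is its own reverse complement, was in 0 of their 37 windows and in 1.79% of 32851 windows. Its core TGACG, on either strand and contained in the full element, was in 6 of 37, those of Cacna1b, Cacna1c, Cacna1i, Cacna2d1, Cacnb2 and Scn10a, and in 20.8% of all windows.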

How the data were processed

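Hippocampal RNA pools were hybridised to 28 arrays. The values are log2 expression as deposited by the authors, who used GeneSpring GX 11, per the labels' protocols, and RMA, per the submitters' processing notes. Genome build and RMA version: not given in the sources used here. Normalization equalises array distributions, so a shift shared by most genes would not be seen. The table had 35556 rows, of which 21789 named 1 gene, 1621 several and 12146 none. The row with the highest mean was kept for each of 19938 genes. RefSeq identifiers were found for 21698 rows and changed 0 symbols.

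Groups came from titles. Differences were fitted with limma 3.58.1 in R 4.3.3 over all 28 arrays (8 group means, no block), in 17 comparisons, two-sided, with Benjamini-Hochberg adjustment over all named genes and a threshold of 0.05. The fit was repeated with array set as a block, and fitted single-gene differences above are from that fit unless stated otherwise. The code was tested on simulated data. The members, lists, tests and array sets were chosen with earlier results of these data known. Values were named for members past the threshold, the 3 highest and 3 lowest in each comparison over all conditions or backgrounds, a fixed set of channel genes, Crebbp and partner-list genes past the threshold. Other members were named where a family was described, after their values were seen.

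Pairing was checked by correlating deviations from group means. Arrays of the same label number correlated at 0.52 to 0.80 among TSA and novelty groups and at -0.58 to 0.23 where 1 was a control, so label numbers do not pair controls with the rest. Arrays of the same array set in different groups correlated at 0.33 to 0.80 (88 pairs), and arrays of other sets at -0.63 to 0.43 (252 pairs). Alternatives were the label number and array set as blocks, vehicle controls only, the compared arrays only, array weights, an intensity trend, repeated quantile normalization, dim genes left out, the mean of a gene's rows, and leaving out arrays or sets.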

Additional observations from a re-analysis of the deposited data

Results flagged for a closer look

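In the control groups of 5 arrays, 70 gene and group combinations were tested for 1 array standing apart from the other 4 (Dixon's test, critical value 0.71), and 5 were found. For exchangeable arrays chance marks about 1 in 20 groups, but these controls come from 4 array sets, so that rate does not apply here, and each array named was its group's only array of its set. Cacng3, a TARP gene, was at 8.47 in wild-type control replicate 5 (set 4, set mean 8.56), against 8.81 to 8.92 in the other wild-type controls. The lowest set for Cacng3 was set 3. The cbp+/- control of set 4, at 8.52, was not the lowest of its group, where the others began at 8.45. Cacng5, a TARP gene, was at 6.34 in cbp+/- control replicate 5 (set 4, the lowest set for this gene, set mean 6.57), against 6.72 to 6.83. The wild-type control of set 4, at 6.58, was not the lowest of its group, where the others began at 6.53. Scn2a was at 10.54 in cbp+/- control replicate 4 (set 3, the lowest set for the entry used, set mean 10.56), against 10.66 to 10.68. The wild-type control of set 3 was also the lowest of its group, at 10.54. In some other Scn2a entries set 2 or set 4 was the lowest. Scn2b was at 9.83 in wild-type control replicate 4 (set 3, the lowest set, set mean 9.76), against 10.01 to 10.06, and the cbp+/- control of set 3 was also the lowest of its group, at 9.88. Scn3b was at 10.04 in cbp+/- control replicate 3 (set 2, the highest set, set mean 10.20), against 9.37 to 9.51. That array is one of the 3 with raised choroid plexus markers, and the wild-type control of set 2, not one of those 3, was also the highest of its group, at 9.93. No genotype difference of a channel gene passed a test of interaction with TSA or novelty.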

How the results depend on the processing

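Channel genes called were 0 in all 17 comparisons without a block, and most alternatives left this unchanged. The exceptions were 1 for genotype over all conditions with the array-set block (Cacna1g, difference -0.30, adjusted p = 0.000522), 1 for TSA over all backgrounds with the replicate block by label number (Cacna2d1, -0.37, adjusted p = 0.013), 1 for TSA in caged wild type with the same replicate block (Cacna2d1), and 5 for TSA in caged wild type with array weights (Cacna1g, Cacna1i, Cacnb1, Cacng4 and Scn3a), where 3872 genes were called in all. The causes were not tested. Label numbers do not pair controls with the rest (correlations of -0.58 to 0.23), which limits the replicate-block calls for TSA. The share of all genes called is not given for the replicate block. Nor is it given below for fits without set 2, the choroid arrays or 1 array, so those counts have no background beside them. With the array-set block, the count for genotype was 2 without array set 2 and 2 without the arrays with raised choroid plexus markers, and 1 to 2 when 1 array was left out (Cacna1g in all 28 fits, with Scn4b without wild-type novelty replicate 2 or wild-type novelty with TSA replicate 1). The count for TSA was 1 without array set 2 (Scn9a, 0.29, adjusted p = 0.0482) and 0 to 1 when 1 array was left out (Cacna1g without cbp+/- control replicate 3). Cacna1g stayed called with the block in all 5 settings that left out a set or the choroid arrays (-0.34 to -0.29, highest adjusted p 0.0404, without set 4, where 14 genes were called in all) and with each array left out (-0.32 to -0.29, highest adjusted p 0.00208). Without the block, genotype differences close to 0 changed sign, none of them past the threshold. Under array weights these were Cacna2d1 (-0.062), Scn1a (-0.015), Scn2a (-0.026) and Scn8a (0.0027), with the mean of a gene's rows Cacng2 (0.0068), and without the choroid arrays Cacna1c (-0.0087) and Cacna1e (-0.0045). Leaving out 1 array without the block gave ranges of -0.039 to 0.10 for Cacna1a, -0.021 to 0.10 for Cacna1b, -0.047 to 0.054 for Cacna1c, -0.065 to 0.065 for Cacna1e, -0.044 to 0.063 for Cacna2d1, -0.070 to 0.023 for Cacng2, -0.024 to 0.073 for Cacng8, -0.018 to 0.052 for Scn1a and -0.073 to 0.045 for Scn8a. Low signal limits the 10 dim genes, Scn4b among them, which the filter on dim genes removed.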
